A study of Mus musculus with 92 samples.

Results

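Tug1 and the numbered small nucleolar RNA host genes (Snhg) are long noncoding RNAs that were read here in single blastomeres of 8-cell mouse embryos. They were chosen by name: the row of Tug1 and every row whose symbol is Snhg followed by a number. In all, 11 of the 7886 rows of the deposited count table met the rule: Tug1, Snhg1, Snhg5, Snhg6, Snhg8, Snhg11, Snhg12, Snhg14, Snhg15, Snhg17 and Snhg20. They are among 149 rows that the annotation classes as long noncoding RNA, except Snhg11, which it classes as protein-coding. The reference annotation holds 16 genes that fit the rule, and the other 5 (Snhg3, Snhg7os, Snhg9, Snhg10 and Snhg18) were not analysed here. Tug1 was put forward because its level differed from the control in an earlier look at these data. Its differences from the control are therefore a description with no test.

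Wild-type C57BL/6N zygotes, whose sample titles carry the tag IVF, were injected with a microRNA or a negative control, grown to the 8-cell stage and taken apart. Each blastomere was read by Smart-seq2, a full-length single-cell RNA method without molecular identifiers. The 4 groups were the injected negative control (NC), the microRNAs let-7d (Let7d) and let-7e (Let7e), and an injected microRNA that the labels call mi699a-5p. The NC embryos were injected too, and no uninjected embryo is among the samples. NC had 22 blastomeres of 3 mouse ids, Let7d 18 of 3, Let7e 20 of 4 and mi699a-5p 21 of 4. Of 92 labelled blastomeres, 10 were not analysed here, and 2 columns of Let7d mouse id 2 that differed by no more than sampling noise were counted as 1. Counts were summed over the blastomeres of a mouse id, and the mouse id was the replicate. What a mouse id stands for, a single embryo or a parent animal, is not given in the labels, and p-values measure only the spread between mouse ids, which may be technical. Each group has mouse ids of its own, so handling and treatment cannot be told apart. A blastomere held between 1575609 and 4950404 counted reads, and a mouse id between 6329464 and 24037593. On 3 ribosomal RNA rows NC had 13.3% ± 3.55 of its reads (SD, n = 3), Let7d 5.92% ± 2.61 (n = 3), Let7e 8.72% ± 3.71 (n = 4) and mi699a-5p 9.96% ± 1.98 (n = 4). Reads per blastomere also moved with the groups: they averaged 2225246 to 2732434 in NC mouse ids, 2991646 to 4071285 in Let7d, 2916582 to 3164732 in Let7e and 1936975 to 2437853 in mi699a-5p. Blastomere markers had a row for 11 of 12 genes, with Dppa3 the most abundant at a median of 4686 CPM (counts scaled to the library total). The CPM of mouse ids given below also carry edgeR's TMM factors. None of 12 cumulus and granulosa cell markers has a row in the table. By its name the table was deposited after a CPM filter, so a missing row does not show that a gene had no reads.

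A snoRNA host gene is transcribed and spliced, and small nucleolar RNAs (snoRNAs) are cut from its introns. The snoRNAs guide chemical modification and processing of ribosomal RNA, while the spliced host transcript is often short-lived and degraded through nonsense-mediated decay. Tug1 (taurine upregulated gene) hosts no snoRNA, is conserved between mammals, and has been linked to Polycomb repressive complex 2 and to male fertility. let-7 microRNAs pair through a short seed at their 5′ end with matching sites in target RNAs.

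Both let-7 microRNAs carry the same seed, and their mature 5p sequences are shown because sites in the transcripts are matched to that seed. The labels do not name the arm that was injected. The sequences are from RefSeq on GRCm38.p6, with bases 2 to 8, the seed, in capitals. mmu-let-7d-5p lies at chr13:48536078-48536099 on the minus strand and mmu-let-7e-5p at chr17:17830366-17830387 on the plus strand.
mmu-let-7d-5p: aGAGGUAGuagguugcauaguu
mmu-let-7e-5p: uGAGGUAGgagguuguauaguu
Counted from the 5′ end, let-7e differs from let-7d at 3 of 22 positions, A1U, U9G and C16U, all outside the seed. The matching 7-base site is CTACCTC on the transcript. Among the longest annotated transcripts, 3 of the 11 genes held it, Snhg1, Snhg14 and Snhg17, with 1 site each, beside 24.5% of the 7878 genes of the table that have a transcript. The longest Tug1 transcript, of 6719 bases, held none, while 37.3% of the 1395 longest transcripts of 5000 to 8500 bases held at least 1. One of the 8 annotated Tug1 transcripts, of 1612 bases, held 1 site at its bases 366 to 372. The Tug1 site is followed by an A, and those of the other 3 genes are not. Their surroundings are shown with the site in capitals.
Tug1, short transcript: ccgcgccaccgCTACCTCagccaccgctt
Snhg1: aagagttcgagCTACCTCccaggatgagt
Snhg14: aagattttgtaCTACCTCttggaacacat
Snhg17: gaaaaatgggaCTACCTCtgtgacataag
A match of letters is a description and was not tested as a binding site.

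Tug1 lies on chromosome 11 of GRCm38 from 3639785 to 3649673 on the minus strand, with 9734 bases of merged exons and no snoRNA inside. In NC, Tug1 stood at 246.5, 167.6 and 205.2 CPM in mouse ids 1 to 3. The Let7d mouse ids gave 390.3, 535.8 and 589.3 CPM, the Let7e mouse ids 279.4, 491.3, 446.8 and 278.1 CPM, and the mi699a-5p mouse ids 434.7, 372.8, 643.2 and 368.7 CPM. All 11 mouse ids with an injected microRNA were above all 3 of NC, while the 3 microRNA groups overlapped each other. The same pattern was found in 40 of 7886 genes (0.507%), and nothing is read from it for Tug1, which was chosen for this difference. NC averaged 206.5 ± 39.5 CPM (SD, n = 3), Let7d 505.1 ± 103.0 (n = 3), Let7e 373.9 ± 111.3 (n = 4) and mi699a-5p 454.9 ± 129.1 (n = 4), and every group mean below has the same n. The fitted log2 fold change of Tug1 from NC was 1.29 ± 0.28 (SE) for Let7d, 0.86 ± 0.27 for Let7e and 1.14 ± 0.27 for mi699a-5p. The 3 comparisons share the NC mouse ids. CPM is a share of all reads, so more Tug1 RNA and less of other RNA in a blastomere cannot be told apart, and copies made by PCR are counted as reads. Tug1 in Let7d, Let7e and mi699a-5p gave 1.29, 0.86 and 1.14 without the ribosomal RNA rows, and 1.26, 0.83 and 1.08 with every blastomere thinned to 1575609 reads. Over the 14 mouse ids the log2 level of Tug1 had a Pearson r of -0.579 with the share of ribosomal RNA and of 0.0632 with the log2 reads per blastomere. With group means removed these were -0.207 and -0.39, given as a description with no test. Leaving out each mouse id in turn gave 1.16 to 1.45, 0.70 to 1.0 and 0.88 to 1.29.

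**Figure D1:**
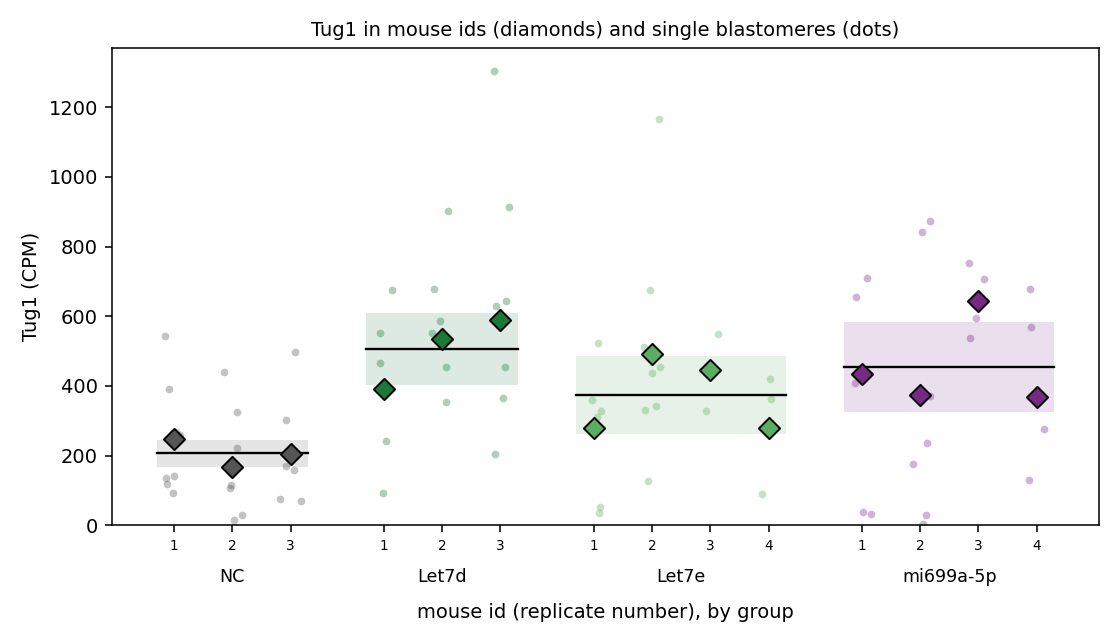
Tug1 in CPM (y axis) by group and mouse id (x axis). Diamonds are mouse ids, dots are blastomeres in CPM of their own total, and the line and band are the mean and SD over mouse ids. The 3 NC diamonds lie between 167.6 and 246.5 CPM and the 11 others between 278.1 and 643.2 CPM.

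Between the microRNA groups, Tug1 was tested. In Let7e it was lower than in Let7d by a log2 difference of -0.43 ± 0.26 (95% interval -0.98 to 0.11), and 2 of the 4 Let7e mouse ids were below all 3 of Let7d. By edgeR's quasi-likelihood test this missed the threshold, with an adjusted p of 0.951. The mean of both let-7 groups differed from mi699a-5p by -0.07 ± 0.22 (interval -0.52 to 0.39), with an adjusted p of 0.986 by edgeR. That last difference turned to 0.37 with equal weight of each blastomere, to 0.01 without Let7d replicate 1 and to 0.18 without mi699a-5p replicate 3. The intervals leave room for a difference in either direction, so the groups are not shown to be alike.

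Every one of the 81 blastomeres had Tug1 reads, between 10 and 3660, with a median of 1007. Single blastomeres ranged from 4.32 to 1310 CPM. The lowest value, 4.32 CPM, came from mi699a-5p mouse id 2, whose highest blastomere had 872 CPM. In NC the median blastomere held 164 CPM and the highest 543 CPM. Of the 18 Let7d blastomeres, 17 were above the NC median and 10 above the highest NC blastomere. For Let7e the numbers were 16 and 3 of 20, and for mi699a-5p 16 and 9 of 21. Blastomeres of NC and of each microRNA group thus overlapped, although the NC mouse ids lay apart from theirs. These counts describe the difference for which Tug1 was chosen. Blastomeres are not replicates, and nothing is read from the counts. Within a mouse id of at least 4 blastomeres, the coefficient of variation of Tug1 was between 0.153 and 0.999, with a median of 0.616 over 13 mouse ids. The medians of the 11 genes went from 0.371 for Snhg1 to 1.0 for Snhg11. Of the summed squares of Tug1 within groups over blastomeres, on the log2 scale with 1 CPM added, 85.2% lay within mouse ids. The 10 Snhg genes had 70.5% (Snhg20) to 92.6% (Snhg5). This share is not adjusted for the number of mouse ids, so it is high even where mouse ids do not differ.

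The protein-coding gene nearest to Tug1 is Morc2a, a chromatin ATPase gene, whose start is 482 bases away on the opposite strand. Its exons overlap 483 bases (5.0%) of those of Tug1, and without a stated strand the reads of the overlap cannot be told apart. NC held 53.4 ± 13.1 CPM of Morc2a, Let7d 49.1 ± 18.3, Let7e 58.9 ± 11.6 and mi699a-5p 46.4 ± 3.72. Its log2 fold changes from NC were -0.12 ± 0.34, 0.14 ± 0.32 and -0.20 ± 0.32, with adjusted p of 0.996 or more by edgeR, and all groups overlapped. Across the 14 mouse ids the log2 levels of both genes had a Pearson r of -0.0443.

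Out of 7275 genes with a mean of at least 10 CPM, the 3 whose log2 level followed that of Tug1 most closely across the 14 mouse ids are given here. Cse1l, which returns importin alpha to the cytoplasm, had a Pearson r of 0.888. Xpo1, the main receptor of nuclear protein export, had 0.877, and Caprin1, an RNA-binding protein of stress granules, had 0.874. Over the 81 blastomeres, after the mean of each mouse id was removed, the same 3 genes had an r with Tug1 of 0.648, 0.695 and 0.556. The r over mouse ids keeps the differences between groups, among them the one for which Tug1 was chosen. These genes were picked as the highest of 7275, and no r of the other genes is given beside theirs. Both genes of a point come from the same libraries and share their depth, and no test was made.

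Snhg1 is transcribed from chromosome 19 of GRCm38, 8723475 to 8726443 on the plus strand, and holds 8 annotated snoRNAs, Snord22 among them. Its start lies 106 bases from that of Slc3a2, a gene of an amino acid transporter chain, on the opposite strand. NC mouse ids held 178.0, 223.5 and 177.3 CPM of Snhg1. Let7d mouse ids held 245.9, 193.3 and 196.1 CPM, those of Let7e 216.1, 219.0, 203.8 and 191.9 CPM, and those of mi699a-5p 95.9, 136.8, 110.5 and 164.7 CPM. All 4 mouse ids of mi699a-5p were below all 10 others, and NC, Let7d and Let7e overlapped. NC averaged 192.9 ± 26.5 CPM, Let7d 211.8 ± 29.6, Let7e 207.7 ± 12.4 and mi699a-5p 127.0 ± 30.3. Against NC, the log2 fold change of Snhg1 in mi699a-5p was -0.60 ± 0.22 (95% interval -1.06 to -0.15), with an edgeR p of 0.0127 and an adjusted p of 0.858. The mean of Let7d and Let7e was higher than mi699a-5p by 0.72 ± 0.19 (interval 0.33 to 1.11), with an edgeR p of 0.00104 and an adjusted p of 0.538. DESeq2 gave an adjusted p of 0.0491 for the second difference and 0.438 for the first. Snhg1 was proposed by name with results of these data in view, so these p-values give its place among all genes and are not independent support for a difference. In Let7d and Let7e, Snhg1 differed from NC by 0.13 ± 0.23 and 0.11 ± 0.22. Slc3a2 averaged 173.2 ± 46.7 CPM in NC and 160.0 ± 53.7 in mi699a-5p, with a log2 fold change of -0.11 ± 0.38 (adjusted p = 0.996 by edgeR).

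Snhg5, the host of Snord50a and Snord50b, lies on chromosome 9 from 88521050 to 88522929 on the minus strand. NC gave 82.5, 72.1 and 112.5 CPM, Let7d 75.2, 71.3 and 67.3, Let7e 73.9, 101.8, 86.7 and 105.9, and mi699a-5p 64.3, 60.9, 62.7 and 48.2. Again the 4 mi699a-5p mouse ids were the lowest of the 14, here by a narrow margin from Let7d. The log2 fold change of Snhg5 in mi699a-5p from NC was -0.59 ± 0.25, with an edgeR p of 0.0281 and an adjusted p of 0.866. With equal weight of each blastomere it was -0.25 ± 0.37, and without NC replicate 3 it was -0.39. The difference of let-7 from mi699a-5p was 0.46 ± 0.21, with an edgeR p of 0.0423 and an adjusted p of 0.772.

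Snhg12 hosts 5 annotated snoRNA entries, among them Snora44, Snora61 and Snord99, on chromosome 4 from 132308623 to 132311024 on the plus strand. NC held 36.5, 18.03 and 31.4 CPM, Let7d 40.6, 31.3 and 18.2, Let7e 21.4, 18.8, 46.4 and 22.0, and mi699a-5p 13.9, 13.8, 12.9 and 13.7. The mi699a-5p mouse ids lay close together, below all others. Snhg12 differed in mi699a-5p from NC by -1.07 ± 0.44 on the log2 scale, with an edgeR p of 0.0253 and an adjusted p of 0.866. Let-7 differed from mi699a-5p by 1.07 ± 0.38, with an edgeR p of 0.0116 and an adjusted p of 0.635. Giving each blastomere equal weight brought the difference of Snhg12 from NC to -0.59 ± 0.56.

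That these 3 genes are lowest in every mi699a-5p mouse id was seen in the values and not set as a question beforehand. It held for 3 of the 11 genes, and for 21 of all 7886 genes (0.266%), while 0 of the 11 and 0.241% of all genes were highest in every mi699a-5p mouse id. Reads per blastomere were also lowest in mi699a-5p as a group, with averages of 1936975 to 2437853 in its mouse ids. That range overlapped the one of NC, 2225246 to 2732434. Over the 14 mouse ids, the log2 level of Snhg1 had a Pearson r of 0.76 with the log2 reads per blastomere, Snhg12 of 0.666 and Snhg5 of 0.316. With group means removed these were 0.395, 0.433 and -0.171, given as a description with no test. With each blastomere thinned to 1575609 reads before summing, an alternative added after the data were seen, mi699a-5p differed from NC by -0.58 ± 0.22 in Snhg1, -0.61 ± 0.26 in Snhg5 and -1.12 ± 0.45 in Snhg12. Thinning equalises the counted reads and no other difference between the libraries, whose part in these values was not tested. By edgeR 0 of the 10 Snhg genes passed the threshold in mi699a-5p against NC, as did 0 of 7886 genes (0%). At an unadjusted p under 0.05 there were 3 of 10, Snhg1, Snhg5 and Snhg12, beside 434 of 7886 genes (5.50%). DESeq2 and limma passed 0 of the 10 in that comparison. Of the 10, 8 had a fold change below 0 and 2 above, with a median of -0.33, while 54.1% of all genes were above 0, with a median of 0.04. In that comparison 4 Snhg genes lay below NC in every mouse id (Snhg1, Snhg5, Snhg11 and Snhg12), as did 3.87% of all genes, and 1 lay above (Snhg14), as did 4.51%.

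**Figure D2:**
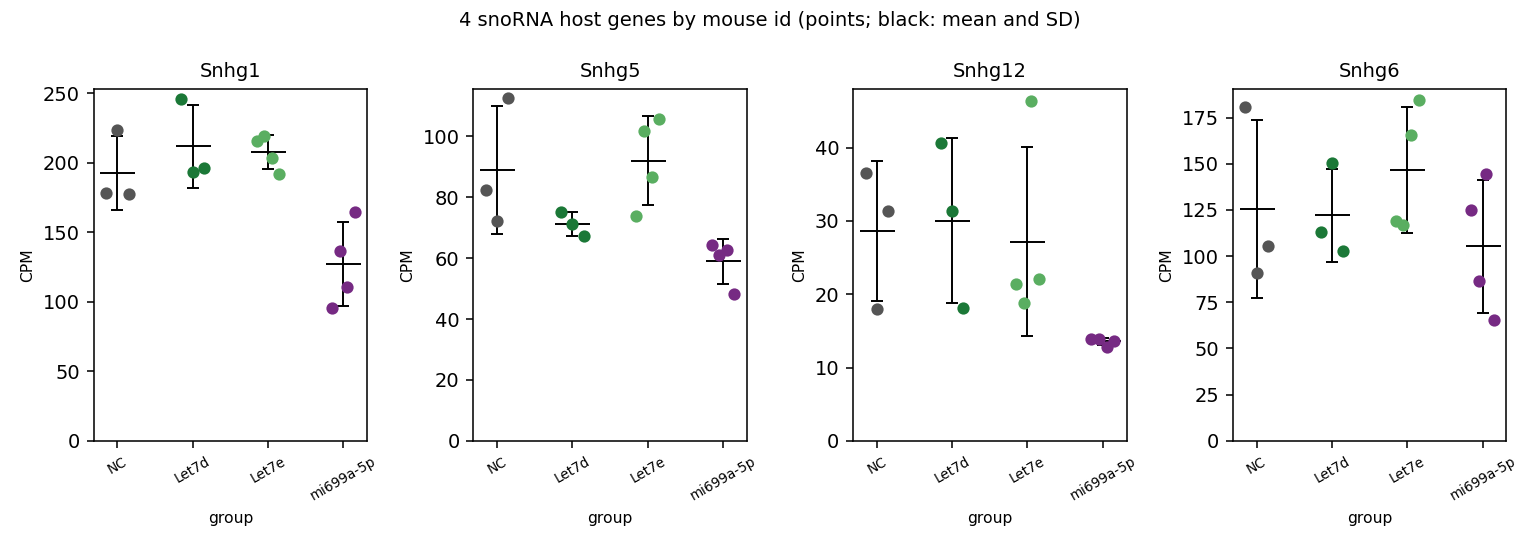
Snhg1, Snhg5, Snhg12 and Snhg6 in CPM (y axis, starting at 0) by group (x axis). Points are mouse ids, and the black bar is the mean with its SD. In the first 3 panels the 4 mi699a-5p points lie below all others, from 95.9 to 164.7 CPM for Snhg1, and in the panel of Snhg6 the groups overlap.

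Snhg6, host of Snord87, lies on chromosome 1 from 9941959 to 9944118 on the minus strand, with the snoRNA in an intron. Exons of Mcmdc2 on the opposite strand overlap 127 bases (11.1%) of its own. Its level was 180.5, 90.6 and 105.6 CPM for NC, 112.9, 150.5 and 102.9 for Let7d, 119.0, 117.0, 165.8 and 184.7 for Let7e, and 125.2, 86.5, 144.7 and 65.3 for mi699a-5p. The 4 groups overlapped, and the highest NC value was almost that of the highest Let7e value. From NC, Let7d differed in Snhg6 by -0.04 ± 0.33 (95% interval -0.74 to 0.66), Let7e by 0.22 ± 0.31 (-0.43 to 0.88) and mi699a-5p by -0.25 ± 0.31 (-0.90 to 0.40) on the log2 scale. Adjusted p were 0.968 or more by edgeR for Snhg6 in Let7e against Let7d and against NC in each group. These intervals do not show that Snhg6 was the same in all groups.

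Snhg14 is the long imprinted transcript of the Prader-Willi and Angelman region, on chromosome 7 from 59307924 to 59975759 on the minus strand, where the annotation lists 208 snoRNA entries. Snhg14 stood at 16.1, 12.5 and 18.3 CPM for NC, 52.0, 21.5 and 31.7 for Let7d, 23.5, 34.9, 6.21 and 41.0 for Let7e, and 21.2, 41.8, 44.1 and 20.5 for mi699a-5p. All mouse ids of Let7d and mi699a-5p were above NC, and 1 Let7e mouse id, which has 2 blastomeres, was below. Let7d differed by 1.17 ± 0.58 (edgeR p = 0.0577), Let7e by 0.76 ± 0.54 (p = 0.177) and mi699a-5p by 1.03 ± 0.55 (p = 0.0755), all with adjusted p of 0.880 or more by edgeR. The Let7d value of Snhg14 was 0.77 without Let7d replicate 1 and 1.83 with equal weight of each blastomere, and the Let7e value was 0.47 without Let7e replicate 4. Ube3a, a ubiquitin ligase gene on the opposite strand, overlaps 1803 bases (6.9%) of the exons of Snhg14. It averaged 38.2 ± 12.4 CPM in NC and 21.5 ± 5.45 in Let7d, a log2 fold change of -0.83 ± 0.39 (edgeR p = 0.0467, adjusted p = 1.0).

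Snhg11 and Snhg17 are neighbours on chromosome 2, on opposite strands, with starts 14058 bases apart. Snhg11 averaged 29.6 ± 6.12 CPM in NC and 11.99 ± 6.09 in mi699a-5p, and the groups did not overlap. Its log2 fold change was -1.30 ± 0.69, with an edgeR p of 0.0751 and an adjusted p of 0.880. The Let7e mouse ids of Snhg11 spread from 2.94 to 34.5 CPM. Ralgapb, the coding gene whose start is nearest to that of Snhg11, at 34210 bases on the same strand, had a log2 fold change of -2.51 ± 0.81 in mi699a-5p against NC (edgeR p = 0.00606, adjusted p = 0.858). For Snhg17, NC averaged 50.02 ± 21.4 CPM, Let7d 35.7 ± 8.33, Let7e 44.8 ± 19.3 and mi699a-5p 37.6 ± 23.6, with overlapping groups. The remaining hosts were Snhg8, with Snora24, Snhg15, with Snora9, and Snhg20, which holds 1 entry annotated as a small Cajal body RNA and 1 microRNA. Snhg15 averaged between 78.0 and 94.0 CPM in the 4 groups, Snhg8 between 14.9 and 24.1 and Snhg20 between 17.2 and 28.6. Groups of these 3 overlapped in every comparison.

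In Let7d against NC, the 10 Snhg genes ranged from -0.49 for Snhg17 to 1.17 for Snhg14, with a median of 0.02 against 0.01 over all genes. In Let7e against NC they ranged from -0.79 for Snhg11 to 0.76 for Snhg14, with a median of 0.11 against 0.02. By edgeR 0 of 10 passed in either comparison, and 0 had an unadjusted p under 0.05. Over all genes, 1 of 7886, ENSMUSG00000118642.1, passed in Let7d (0.0127%) and 0 in Let7e (0%), with 4.69% and 4.02% at an unadjusted p under 0.05. DESeq2 and limma passed 0 of the 10 in both. In Let7d 5 of the 10 were above 0 and in Let7e 7, beside 51% and 51.9% of all genes. Snhg14 was above NC in every Let7d mouse id, as were 6% of all genes, and 0 Snhg genes were below (5.96%). In Let7e 0 of the 10 were apart from NC, higher (2.78%) or lower (2.84%). For the mean of let-7 against NC, 0 of the 10 passed by edgeR, DESeq2 or limma, with 1 of 7886 genes by edgeR, and 0 had an unadjusted p under 0.05 (3.89% of all genes). Of the 10, 5 were above 0 (50.5% of all genes), and 0 lay above (0.989%) or below (0.786%) NC in all let-7 mouse ids. Let7e against Let7d, which differ by 3 bases outside the seed, gave 0 of 11 genes past the threshold by edgeR, DESeq2 and limma, and 0 of 11 at an unadjusted p under 0.05, beside 0% and 5.39% of all genes. Above 0 were 5 of the 11 (50.8% of all genes), and 0 had groups apart, higher (3.12%) or lower (2.95%). The largest of these differences were -0.87 ± 0.68 for Snhg11 and 0.69 ± 0.56 for Snhg8. In the mean of let-7 against mi699a-5p, 9 of 10 Snhg genes were above 0, with a median of 0.26 against -0.03 over all genes, of which 46.2% were above 0. Of the 11 genes there, 0 passed by edgeR, as did 0 of 7886 (0%), 1 passed by DESeq2 (Snhg1) and 0 by limma. Over all genes, DESeq2 passed 9 higher and 2 lower of the 6811 to which it gave an adjusted p, and limma 0 of 7886. By edgeR, 3 of the 11 had an unadjusted p under 0.05, Snhg1, Snhg5 and Snhg12, beside 6.39% of all genes. The same 3 had all let-7 mouse ids above all of mi699a-5p (0.482% of all genes), and 0 had them below (0.52%).

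**Figure D3:**
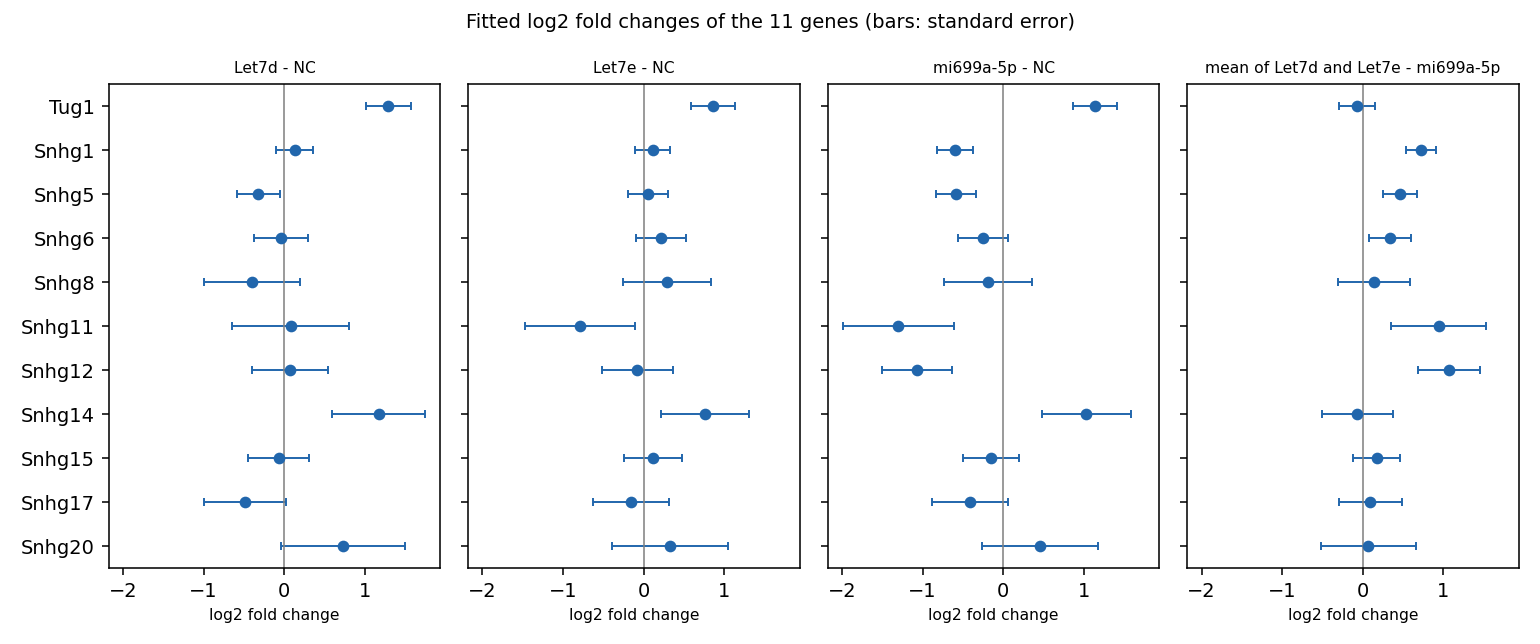
Log2 fold changes (x axis) of the 11 genes (y axis) in 4 comparisons, with the standard error of the edgeR fit as bars. Tug1 lies at 1.29, 0.86 and 1.14 against NC and at -0.07 between let-7 and mi699a-5p, where Snhg1 lies at 0.72. The first 3 panels share the NC mouse ids.

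Per kilobase of merged exons, which allows levels to be compared between genes, Snhg6 was the highest of the 11, with a mean of 109.2 CPM per kb over the 14 mouse ids. It was followed by Snhg15 at 62.9, Snhg1 at 61.4, Snhg5 at 44.8, Tug1 at 40.0 and Snhg8 at 22.6 CPM per kb. Snhg12 at 10.1, Snhg20 at 8.15, Snhg17 at 5.94 and Snhg11 at 2.50 came next, and Snhg14 was the lowest at 1.05 CPM per kb. Snhg6 was above Snhg15 in 13 of 14 mouse ids. Snhg15 and Snhg1 did not differ beyond their spread, with a mean log2 ratio of 0.0118 ± 0.62 (SD), nor did Snhg5 and Tug1, at 0.229 ± 0.765. The pairs of Tug1 and Snhg8, Snhg12 and Snhg20, Snhg20 and Snhg17, and Snhg11 and Snhg14 had mean ratios within 1 SD of 0. The first gene of these pairs was nevertheless higher in 12, 10, 9 and 11 of the 14 mouse ids. The SD is the spread over mouse ids, and no test of the order was made. Snhg8 was above Snhg12 in 14 of 14 mouse ids. Merged exons of Snhg1, Snhg8 and Snhg12 form 1 block because some annotated isoforms keep their introns. Divided by the longest transcript, the first 7 genes kept their order, with Snhg6 at 153.3 CPM per kb, Tug1 at 57.9 and Snhg14 at 4.01. Snhg11, at 3.63, then took the lowest place. The place of Tug1 by group mean per kb moved with the groups: it was 6 of 11 in NC, below Snhg8, and 3 in mi699a-5p, above Snhg1 and Snhg5, with 4 for Let7d and 5 for Let7e. Snhg6 was the highest and Snhg14 the lowest in all 4 groups. In CPM without regard to length, Tug1 had the highest mean of the 11 and stood above 94.6% of the genes of the table.

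**Figure D4:**
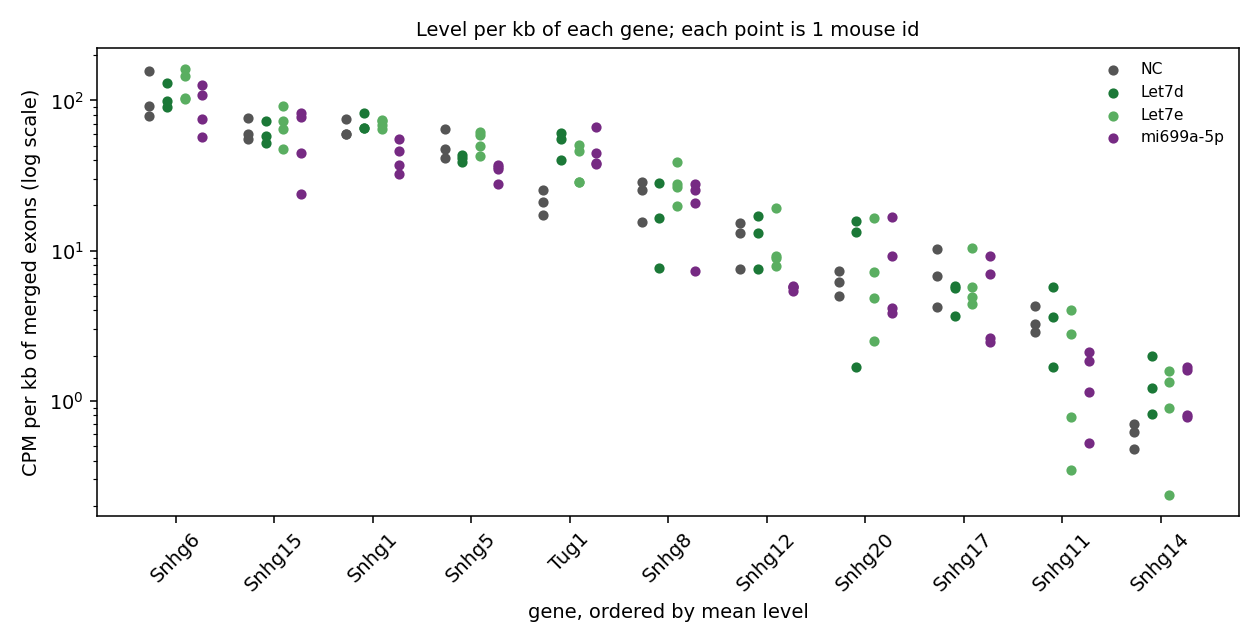
Level of each gene in CPM per kb of merged exons (y axis, log scale), with the 11 genes ordered by their mean (x axis) and 1 point per mouse id, coloured by group. Means fall from 109.2 for Snhg6 to 1.05 for Snhg14, and in the column of Tug1 the 3 NC points are the lowest.

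Snhg1, Snhg6 and Snhg15 had reads in all 81 blastomeres, as did Tug1. Snhg5, Snhg8, Snhg12 and Snhg14 were read in 80, Snhg17 in 76, Snhg20 in 72 and Snhg11 in 64. With at least 10 reads asked for, the numbers were 71 for Snhg8, 73 for Snhg12, 70 for Snhg14 and 58 for Snhg11. Of the mi699a-5p blastomeres, 13 of 21 had a read of Snhg11, against 19 of 22 in NC, 15 of 18 in Let7d and 17 of 20 in Let7e. Thinned to 1575609 reads per blastomere, Snhg11 was read in 63 of 81. In the blastomere with the fewest Snhg1 reads there were 53, and in the one with the most there were 1572. Median coefficients of variation within a mouse id were lowest for Snhg1 at 0.371 and Snhg6 at 0.381, and highest for Snhg11 at 1.0.

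Over the 81 blastomeres, after the mean of each mouse id was removed, the 45 pairs of Snhg genes had a median Pearson r of 0.259, with 3 pairs below 0. The highest was 0.498, between Snhg12 and Snhg15. Tug1 with the 10 Snhg genes had a median of -0.159, and 9 of the 10 were below 0, down to -0.455 with Snhg15. Genes read in 1 blastomere share its library, depth and composition, and values in CPM of 1 total are tied to each other. With the log2 total of reads Tug1 had an r of -0.0882 and Snhg15 of 0.0376, and with the ribosomal RNA share -0.216 and 0.185. The 11 genes ranged from -0.293 (Snhg11) to 0.279 (Snhg17) with the total, and from -0.216 (Tug1) to 0.245 (Snhg17) with the ribosomal RNA share. No share of all gene pairs is given beside these counts, so they are not shown to be particular to these genes. These values are a description with no test.

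**Figure D5:**
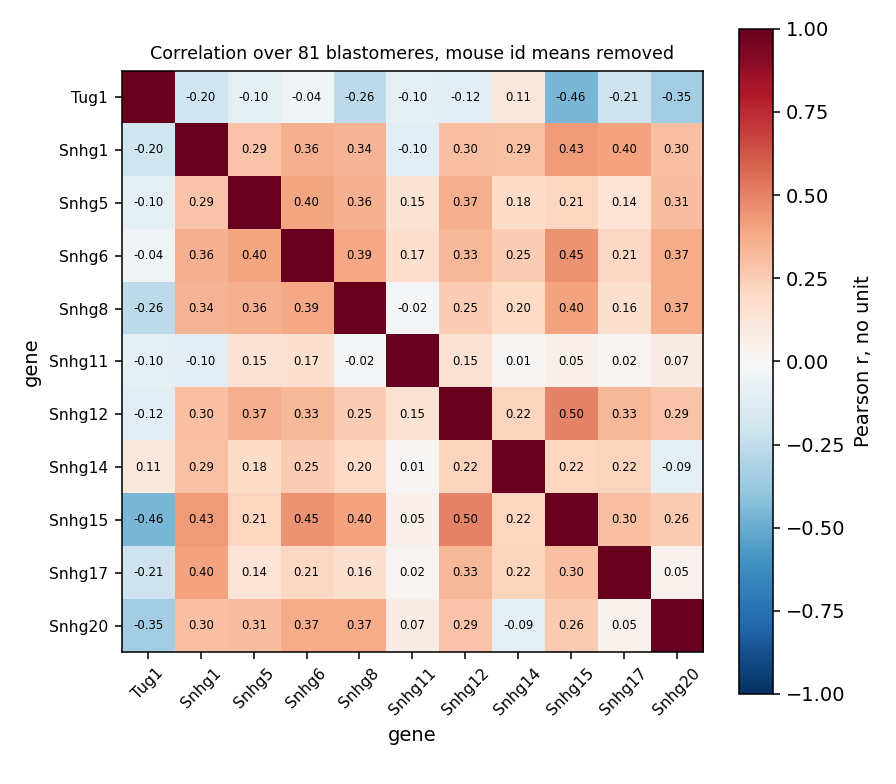
Pearson r between the 11 genes (both axes) over 81 blastomeres, on log2 CPM with 1 added and with the mean of each mouse id removed. The row of Tug1 is below 0 except with Snhg14, at 0.112, and Snhg pairs reach 0.498.

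Across the 14 mouse ids, the genes most like Snhg1 were Chmp6, a subunit of the endosomal sorting machinery, with a Pearson r of 0.849, Smg9, a nonsense-mediated decay factor, with 0.831, and Sepsecs, an enzyme of selenocysteine synthesis, with 0.816. Within mouse ids, over blastomeres, their r with Snhg1 was -0.0206, -0.110 and -0.0136. For Snhg6 they were Slco2a1, a prostaglandin transporter, with 0.787, Pmel, a melanosome protein, with 0.779, and Hacd2, a fatty acid elongation enzyme, with 0.770, and -0.117, -0.0144 and 0.159 over blastomeres. For these 6 genes the values over blastomeres were between -0.117 and 0.159, and no test was made. Their r over mouse ids keeps the differences between groups.

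Promoters are printed for Tug1 and for the 3 genes that were lowest in mi699a-5p, from 250 bases before to 50 after the RefSeq start on GRCm38.p6. Capitals mark the E-box CACGTG, the CCAAT box CCAAT, the GC box GGGCGG and the TATA box TATAAA, searched on both strands. Tug1 is at chr11:3648765-3649064 (minus), Snhg1 at chr19:8723237-8723536 (plus), Snhg5 at chr9:88522848-88523147 (minus) and Snhg12 at chr4:132308428-132308727 (plus).
Tug1: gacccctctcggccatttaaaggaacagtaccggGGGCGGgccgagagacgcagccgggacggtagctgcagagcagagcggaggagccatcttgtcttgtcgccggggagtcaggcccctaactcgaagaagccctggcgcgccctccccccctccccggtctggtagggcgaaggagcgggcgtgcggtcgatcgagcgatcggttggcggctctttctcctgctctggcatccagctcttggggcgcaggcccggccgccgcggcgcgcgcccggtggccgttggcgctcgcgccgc
Snhg1: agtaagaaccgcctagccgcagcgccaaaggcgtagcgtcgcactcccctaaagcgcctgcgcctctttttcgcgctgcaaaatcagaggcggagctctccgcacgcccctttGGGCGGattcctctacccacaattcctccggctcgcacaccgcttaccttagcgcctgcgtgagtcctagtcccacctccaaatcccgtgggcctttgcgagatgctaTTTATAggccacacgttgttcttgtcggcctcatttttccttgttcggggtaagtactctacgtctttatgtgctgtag
Snhg5: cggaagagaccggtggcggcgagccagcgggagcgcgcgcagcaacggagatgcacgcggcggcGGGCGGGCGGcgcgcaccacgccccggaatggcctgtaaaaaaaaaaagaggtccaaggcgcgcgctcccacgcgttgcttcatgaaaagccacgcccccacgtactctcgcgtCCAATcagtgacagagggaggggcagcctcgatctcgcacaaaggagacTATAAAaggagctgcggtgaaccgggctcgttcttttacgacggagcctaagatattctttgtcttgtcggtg
Snhg12: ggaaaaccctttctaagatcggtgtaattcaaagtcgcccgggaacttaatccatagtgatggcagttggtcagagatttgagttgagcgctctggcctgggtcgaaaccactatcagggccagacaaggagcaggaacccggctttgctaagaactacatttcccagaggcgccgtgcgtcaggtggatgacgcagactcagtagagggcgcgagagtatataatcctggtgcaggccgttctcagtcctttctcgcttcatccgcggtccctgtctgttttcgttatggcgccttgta
The RefSeq start of Tug1 is 859 bases from that of the annotation used for the exons, and that of Snhg1 is 12 bases away. RefSeq promoters were found for 10 of the 11 genes. A GC box was in 6 of the 10, Tug1, Snhg1 and Snhg5 among them, and in 67.0% of 6219 promoters of genes of the table. TATAAA was in 3, Snhg1, Snhg5 and Snhg8, and in 6.2% of all. CCAAT was in 3 and in 39.7% of all, and the E-box was in Snhg15 and in 11.4% of all. A C followed by 4 pyrimidines, beginning within 10 bases of the start, was in Snhg5, Snhg8 and Snhg12 and in 32.1% of all. The Snhg12 promoter held none of the first 4 motifs.

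Of 9 other long noncoding snoRNA hosts, 4 have a row. For Gas5, a host of many snoRNAs, NC averaged 317.7 ± 60.6 CPM, Let7d 303.4 ± 48.2, Let7e 332.6 ± 54.4 and mi699a-5p 246.4 ± 56.7. For Zfas1, NC averaged 83.9 ± 10.7 CPM, Let7d 58.1 ± 20.1, Let7e 75.2 ± 12.8 and mi699a-5p 45.6 ± 12.2. In mi699a-5p, Zfas1 differed from NC by -0.88 ± 0.30 (edgeR p = 0.0098, adjusted p = 0.858), and the 2 groups did not overlap. Gas5 differed by -0.37 ± 0.22 (adjusted p = 0.904), Dancr by -0.25 ± 0.67 and Epb41l4aos by 0.26 ± 0.42. Of these 4 genes, 0 passed by edgeR in any of the 6 comparisons, and 3 were below 0 in mi699a-5p against NC, 1 of them with an unadjusted p under 0.05. In Let7d and in Let7e against NC 3 were below 0 as well, 0 of them with an unadjusted p under 0.05.

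Of 40 protein-coding snoRNA hosts, 0 passed by edgeR in any comparison. Against NC, Let7d had 15 of them above 0 and 25 below, with a median of -0.10 and 3 at an unadjusted p under 0.05. Let7e had 27 above and 13 below, with a median of 0.05 and 0 at that p. Over all genes the medians were 0.01 and 0.02, with 51% and 51.9% above 0 and 4.69% and 4.02% at that p. In mi699a-5p against NC 10 were above 0 and 29 below, with a median of -0.07 against 0.04 over all genes, of which 54.1% were above 0. An unadjusted p under 0.05 was found for 2 of the 40, beside 5.50% of all genes: Rps2, a ribosomal protein gene (-0.47 ± 0.20), and Taf1d, a factor of RNA polymerase I (-0.45 ± 0.21). Rpsa, another ribosomal protein gene, came next (-0.38 ± 0.20). Among 23 snoRNP proteins and assembly factors, 0 passed by edgeR in any comparison. At an unadjusted p under 0.05 there were 4 in Let7d against NC, with a median of -0.14, 0 in Let7e and 0 in mi699a-5p against NC, 1 in the mean of let-7 against NC, 3 in Let7e against Let7d and 4 in let-7 against mi699a-5p. Over all genes the shares were 4.69%, 4.02%, 5.50%, 3.89%, 5.39% and 6.39%. In mi699a-5p against NC 13 of the 23 were above 0 and 10 below, with a median of 0.02, and the 3 with the smallest p there were Gar1 (-0.69 ± 0.33), Pih1d1 (-0.63 ± 0.30) and Naf1 (-1.15 ± 0.59). For 23 factors of nonsense-mediated decay and the exon junction, 0 passed by edgeR. In mi699a-5p against NC 13 were above 0 and 10 below, with a median of 0.15, and the smallest p were those of Upf3a (-1.09 ± 0.36), Smg9 (-0.85 ± 0.38) and Upf3b (0.89 ± 0.40), all 3 under 0.05 before adjustment, as were 5.50% of all genes. For 9 genes of Polycomb repressive complex 2, 0 passed by edgeR. In the mean of let-7 against NC 0 had an unadjusted p under 0.05, and 4 were above 0 and 5 below, with a median of -0.01 against 0.00 over all genes. Eed (0.38 ± 0.23), Rbbp7 (0.38 ± 0.25) and Mtf2 (0.30 ± 0.25) had the smallest p of that list there. At an unadjusted p under 0.05 there was 1 of the 9, Rbbp7, in Let7d against NC (4.69% of all genes) and in Let7e against Let7d (5.39%). Its values were 0.76 ± 0.29 (edgeR p = 0.0188, adjusted p = 0.986) and -0.76 ± 0.27 (edgeR p = 0.0115, adjusted p = 0.874). The remaining comparisons had 0. Another 8 well-known long noncoding RNAs had 3 above 0 and 5 below in mi699a-5p against NC, with a median of -0.13, 0 of them at an unadjusted p under 0.05. Their smallest p there were those of Mir17hg (-0.99 ± 0.66), 1700020I14Rik (-0.47 ± 0.41) and Pvt1 (-1.02 ± 0.97). Against NC, the other 139 annotated long noncoding RNAs of the table had a median of 0.10 for Let7d, 0.10 for Let7e and 0.08 for mi699a-5p, with 4, 3 and 7 at an unadjusted p under 0.05, beside 4.69%, 4.02% and 5.50% of all genes, and 0 passed by edgeR. DESeq2 and limma also passed 0 genes of these lists in all 6 comparisons. The values given for these lists are log2 fold changes with their standard errors.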

How the data were processed

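Single blastomeres were sequenced after Smart-seq2 amplification and Nextera XT library preparation, per the labels' protocols. The authors deposited a table of raw read counts per gene, aligned with STAR to GRCm38.p6 per the submitters' processing notes. By its name it holds the genes left after a CPM filter, and shares of all genes are shares of those. The counter, its annotation and its use of strand are not given in the sources used here, so reads of genes that overlap on opposite strands cannot be told apart. The table holds 7886 genes and 82 of the 92 labelled blastomeres, and symbols were matched for 7878 gene IDs through the GENCODE M21 annotation.

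Columns were compared in pairs by a chi-square test over genes. Of 3321 pairs, 1 had a chi-square of only 1.051 per gene (6197 genes), the next lowest being 28.72, and its columns were counted as 1 blastomere. Counts were summed by mouse id and tested in 1 fit of all 4 groups with edgeR 4.0.16 in R 4.3.3 (TMM, filterByExpr, which removed 0 genes, glmQLFit and glmQLFTest, two-sided), with Benjamini-Hochberg adjustment over all 7886 genes and a threshold of 0.05. The fold changes are log2 values with standard errors. The alternatives were DESeq2 1.42.0, limma 3.58.1 (voom), library totals without TMM, no filter and a stricter filter, fits of the compared groups only, a replicate block, equal weight of blastomeres, no ribosomal RNA rows, counts thinned per mouse id and, added after seeing the data, per blastomere, all columns kept, and leaving out each mouse id. CPM per mouse id carries the TMM factors, except for the cell type markers, and CPM per blastomere does not. Correlations used log2 CPM, with 1 added for blastomeres and a prior count of 2 for mouse ids. Python 3.11.15 with numpy 2.4.6, pandas 2.3.3 and scipy 1.17.1 made the summaries.

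The members and lists were chosen with earlier results of these data known. Named beside the members are the 3 genes most like Tug1, Snhg1 and Snhg6 across mouse ids, the nearest coding genes, and the 3 genes of each list with the smallest p in a comparison. The lists were other long noncoding and protein-coding snoRNA hosts, snoRNP proteins, nonsense-mediated decay, Polycomb repressive complex 2 and long noncoding RNAs. The edgeR script was tested on simulated data with known changes in Let7d against NC. It called 1.3% of 76 genes changed by a log2 of 1, 52.1% of 73 changed by 2 and 76.5% of 51 changed by 3. There were 3 false calls. Differences near a log2 of 1 were thus seldom called there, and missing the threshold does not show that a gene is unchanged.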

Additional observations from a re-analysis of the deposited data

Results flagged for a closer look

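Snhg12 in Let7e had 1 mouse id far from the other 3: replicate 3 held 46.4 CPM, and the others held 18.8 to 22.0 CPM. Replicate 3 has 2 blastomeres, at 21.6 and 65.8 CPM. Without it, the log2 difference of Snhg12 between let-7 and mi699a-5p was 0.88 in place of 1.07. Among 22 groups of 4 mouse ids looked at in this way, this was the only one, and chance alone marks about 1 in 20 such groups.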

How the results depend on the processing

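Under 26 alternatives, 14 of which left out 1 mouse id and 1 of which (thinned blastomeres) was chosen after seeing the data, 31 of 66 values (11 genes in 6 comparisons) changed sign at least once. None of the changes were in Tug1 against NC, in Snhg14 against NC in any group, in Snhg11 in mi699a-5p against NC, or in Snhg1, Snhg5 and Snhg12 in both comparisons with mi699a-5p. DESeq2 passed 1 of the 11 genes in let-7 against mi699a-5p, Snhg1 (0.74 ± 0.19, adjusted p = 0.0491), where edgeR passed 0. Over all genes DESeq2 passed 9 higher and 2 lower of 6811 in that comparison. There the adjusted p of Snhg1 was between 0.0491 and 0.88 over the alternatives. Tug1 in that comparison, -0.07 in the fit, turned to 0.37 with equal weight of blastomeres and to 0.38 with all columns kept as well, and spanned -0.15 to 0.18 when a mouse id was left out, with 0.01 without Let7d replicate 1. With the median blastomere of each mouse id taken, Snhg1 in Let7e averaged 186.0 CPM over mouse ids, against 207.7 from summed counts. The median over all Let7e blastomeres together was 189.0 CPM. Library totals without TMM moved the median of all genes in Let7d against NC to 0.12, with Tug1 at 1.41. Correlations of deviations between same-numbered mouse ids averaged 0.0059 over 19 pairs, and -0.0021 over 54 pairs of other numbers. Mouse ids of the same number were thus hardly more alike on average, and a batch shared by number was not tested. With a replicate block, Tug1 stood at 1.26, 0.92 and 1.21 against NC in Let7d, Let7e and mi699a-5p, and at -0.12 between let-7 and mi699a-5p, Snhg1 at 0.77 there, and 0 of the 11 genes passed. The cause of these shifts was not tested. The 3 or 4 mouse ids a group, and the 2 blastomeres of Let7e replicate 3, limit the precision of these values.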
